A study of Mus musculus with 11 samples.

Results

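The genes described here form the machinery with which a nerve terminal releases neurotransmitter: the active zone scaffold genes Rims1, Rims2, Pclo and Bsn, the membrane fusion genes Snap25, Stx1a and Vamp2, the calcium sensor gene Syt1 and the synapsin genes Syn1 and Syn2. They were chosen by name, and every mouse probe whose RefSeq accession maps to one of these symbols was taken, which gave 10 genes and 15 probes of 19987 genes and 39429 mouse probes on the array. Hypothalamic RNA of male C57BL/6N offspring was measured at postnatal day 21 (P21) on single-colour Agilent arrays, in 6 samples of the HFD group and 5 samples of the CO group. Dams of HFD offspring ate a high-fat diet before conception and through gestation and lactation, and dams of CO offspring ate standard chow (the sample titles call this group SD). Diet was assigned to the dams, so the groups differ by diet and not in a gene. Male breeders ate standard chow, but by the study's methods they could reach the high-fat diet while mating. Litters were brought to an equal size soon after birth. The labels say neither whether a sample is a single pup nor which dam bore it, and p-values thus measure only the scatter between samples, which may be technical. The study's methods allow litter mates among the offspring analysed, and the main tests treated all samples as independent.

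In a nerve terminal, the scaffold proteins RIM, Piccolo and Bassoon line the active zone, the patch of membrane at which vesicles dock and calcium channels gather. Fusion is driven by the SNARE proteins syntaxin-1 and SNAP-25 on the cell membrane and VAMP2 on the vesicle, which zip together, and synaptotagmin-1 triggers this step when calcium enters. Synapsins coat the vesicles held in reserve behind the active zone. In the hypothalamus the same proteins serve the fast transmission by glutamate and GABA between the neurons that govern feeding, and SNARE proteins also act in the release of peptides.

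Several facts of the whole series bear on every value below. HFD and CO arrays were scanned 337 days apart, on separate slides and with different versions of the extraction protocol, so maternal diet and scan session cannot be told apart. Spots well above background made up 71.8 to 77.4% on HFD arrays and 82.5 to 85.7% on CO arrays, and no mouse spot was saturated. Levels are log2 signals minus the log2 of the 75th percentile of the same array. On this scale the 8 spike-in probes, which bind RNA added to each sample in amounts the sources used here do not give, lay 0.67 higher on HFD arrays than on CO arrays, without overlap (two-sided exact permutation p = 0.00433, the minimum for 6 against 5 samples). Scaling each array to these probes instead lowers the HFD minus CO difference of a probe with a value on all 11 arrays by that amount. Of 12 neuron markers, 4 were higher and 1 was lower in HFD offspring, and their summed signal ran from 176 to 203 times the 75th percentile in HFD samples and from 168 to 187 in CO samples. Of 10 oligodendrocyte markers 1 was higher and 7 were lower, with sums from 303 to 381 in HFD and from 350 to 396 in CO samples, and of 10 striatum markers 0 were higher and 8 were lower, with sums from 18.02 to 43.63 in HFD and from 25.0 to 121.6 in CO samples. Of 8 thalamus markers 6 were higher and 1 was lower, with sums from 18.9 to 27.1 in HFD and from 11.8 to 21.4 in CO samples. Of 10 microglia markers 3 were higher and 5 lower (median difference -0.24). Their sums ran from 73.4 to 85.1 in HFD and from 64.9 to 72.8 in CO samples. Itgam, 1 of the 3 higher, was the brightest marker and weighed most in these sums. Its log2 level averaged 5.72 in HFD and 5.03 in CO samples. Of 10 astrocyte markers 2 were higher and 2 lower, with sums from 181 to 208 in HFD and from 190 to 253 in CO samples. Of 5 tested pituitary markers 1 was higher and 1 lower. All 15 hypothalamus markers were tested, 4 higher and 2 lower, with sums from 54.7 to 85.4 in HFD and from 55.2 to 66.3 in CO samples. Sim1, 1 of the 4, was not well above background on any of the 5 CO arrays and entered the test through HFD arrays only. The part of these lists and of the spike-in shift in the results below was not tested.

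All 15 probes of the 10 genes were well above background on all 11 arrays and entered the test (limma, two-sided, Benjamini-Hochberg adjustment over 31796 probes, threshold 0.05). By the brightest probe of each gene, 5 genes were higher in HFD than in CO offspring (Rims1, Rims2, Pclo, Snap25 and Syt1), 2 were lower (Stx1a and Syn1), and 3 did not pass (Bsn, Vamp2 and Syn2). Among all 17189 genes tested the same way, 21.9% were higher and 44.5% were lower. The median difference of the 10 genes was 0.28 on the log2 scale, beside -0.18 over all genes tested. In each of the 5 higher genes no CO sample reached the lowest HFD sample, which held for 16% of all genes, and in both lower genes no HFD sample reached the lowest CO sample, which held for 30.9%. Counted by probe, 8 of 15 were higher and 3 were lower, beside 23.2% and 43.9% of all probes, and the groups did not overlap for 10 of 15, beside 48.2% of all probes. With scaling to the spike-in probes, Rims1, Rims2, Snap25 and Syt1 no longer passed. The differences of Rims1 (-0.12), Snap25 (-0.082) and Syt1 (-0.11) then lay below 0. Bsn, Vamp2 and Syn2 were then called lower, as were Stx1a and Syn1. The counts became 1 gene higher (Pclo) and 5 lower, beside 5.5% of all genes higher and 83.7% lower with that scaling. These are whole-tissue samples, in which fewer cells of a type and less RNA per cell cannot be told apart.

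**Figure D1:**
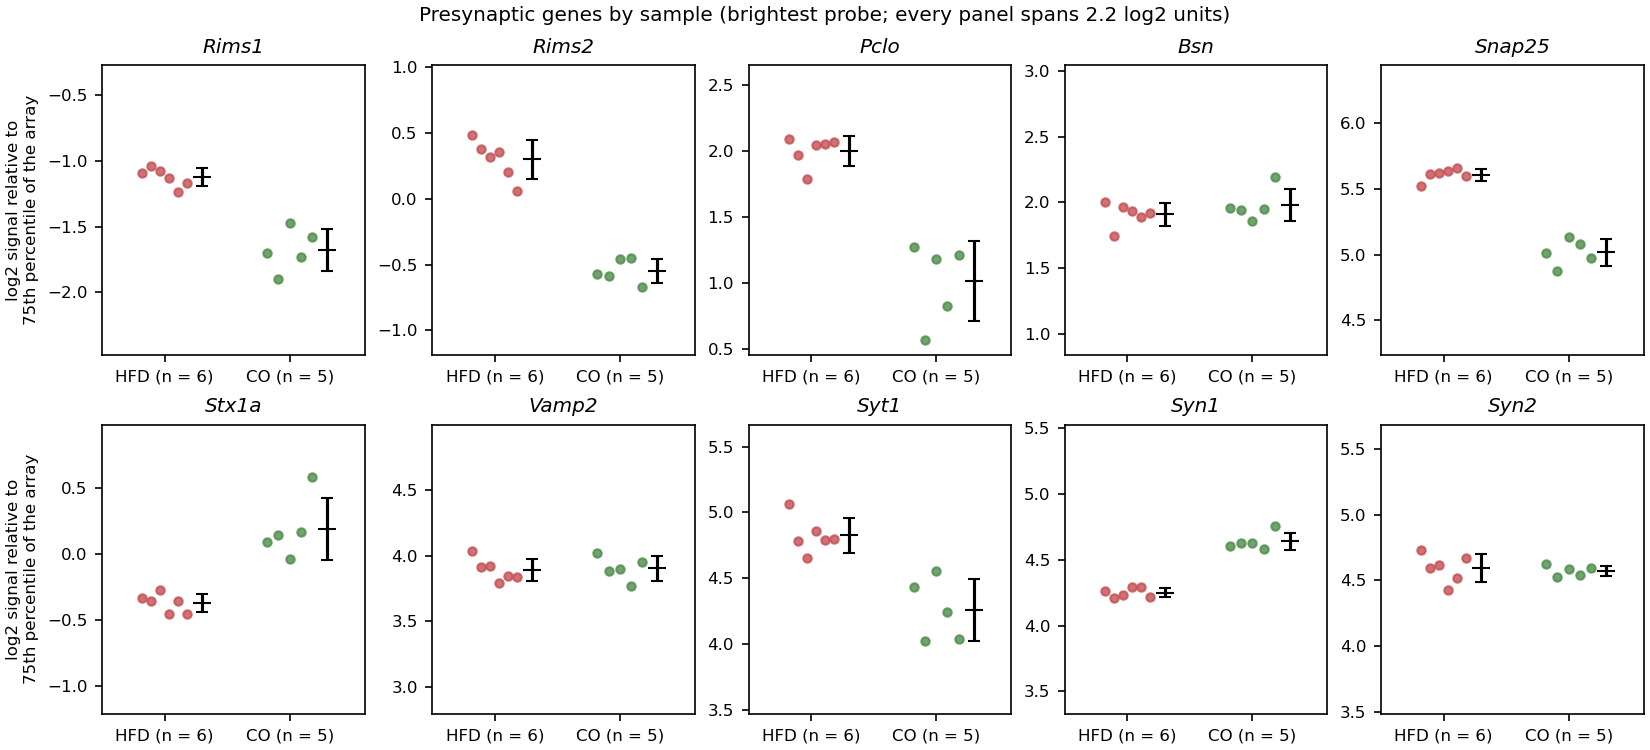
Log2 signal of the brightest probe of each of the 10 genes, relative to the 75th percentile of the array, in 6 HFD and 5 CO samples; points are samples, and the bars give the mean and SD of each group. The groups do not overlap for Rims1, Rims2, Pclo, Snap25 and Syt1 (HFD above CO) or for Stx1a and Syn1 (HFD below CO), and they overlap for Bsn, Vamp2 and Syn2. With scaling to the spike-in probes the sign turns for Rims1, Snap25, Syt1 and Syn2, and of these only Syn2 then passes.

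Promoter sequences are shown for 2 genes that were higher and 2 that were lower, so that the letters before their start sites can be set side by side. They come from a table of RefSeq promoters on the mouse assembly GRCm38.p6 (250 bases before to 50 after each start), in which 9 promoters matched 7 of the 10 genes. Rims2, Snap25 and Vamp2 were not matched. Each stretch has 120 bases, is read 5′ to 3′ on the strand of the gene and ends before the start site. Capitals mark exact matches to the motifs searched on both strands.
Rims1, chr1:22806239-22806358, minus strand: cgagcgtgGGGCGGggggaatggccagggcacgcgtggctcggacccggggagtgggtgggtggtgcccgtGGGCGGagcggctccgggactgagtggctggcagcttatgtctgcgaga
Pclo, chr5:14514796-14514915, plus strand: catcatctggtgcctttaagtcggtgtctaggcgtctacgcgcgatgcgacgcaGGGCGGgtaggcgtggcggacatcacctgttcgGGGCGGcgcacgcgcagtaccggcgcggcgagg
Stx1a, chr5:135023362-135023481, plus strand: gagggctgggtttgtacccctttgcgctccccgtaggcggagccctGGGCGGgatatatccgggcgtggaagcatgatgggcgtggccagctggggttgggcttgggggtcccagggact
Syn1, chrX:20921049-20921168, minus strand: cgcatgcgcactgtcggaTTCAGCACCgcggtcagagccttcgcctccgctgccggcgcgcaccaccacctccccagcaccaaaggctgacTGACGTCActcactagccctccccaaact
The capitals in Rims1, Pclo and Stx1a are GC boxes (GGGCGG), of which the whole 300-base promoters held 3, 4 and 3, and 35.7% of all 32851 promoters held at least 1. Syn1 held no GC box, but it held the left part of the RE1 element bound by the repressor REST (TTCAGCACC, present in 0.371% of all promoters), starting 232 bases before the start site. It also held a cyclic AMP response element (TGACGTCA, 1.79%), starting 159 bases before the start site. The right RE1 part (GGACAGC, 6.56% of all promoters), the E-box (CACGTG, 7.15%) and the TATA box (TATAAA, 13.6%) had no exact match in any of the 9 promoters. Variants of a motif were not searched, so these elements may still be present in another spelling. G and C made up 69.3% of the Rims1, 66% of the Pclo, 66.3% of the Stx1a and 68.3% of the Syn1 promoter, beside a median of 52.7% over all promoters, so all 4 lay above that median. Over the 9 promoters the content ran from 44% (1 of 2 for Syt1) to 72.3% (Bsn). A match describes these letters only.

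Among the active zone scaffolds, both RIM genes and Pclo were higher in HFD offspring and Bsn did not pass the test. Rims1 encodes RIM1, which tethers vesicles and calcium channels to the active zone. Its brightest probe had 0.424 to 0.486 times the 75th percentile in HFD samples (median 0.463), against 0.308, 0.269, 0.361, 0.302 and 0.334 in CO samples 1 to 5. Every HFD sample lay above the highest CO sample, replicate 3. Rims1 was 1.46-fold higher, with a log2 difference of 0.55 (SE, standard error of the difference, 0.078, adjusted p = 7.95e-05 by limma), and with spike-in scaling the difference was -0.12 (adjusted p = 0.291). A second Rims1 probe had 0.150 to 0.203 in HFD samples (median 0.178), against 0.134, 0.115, 0.138, 0.154 and 0.129 in CO samples. Here the lowest HFD sample, replicate 6, lay below CO replicate 4, and the difference was 0.40 (SE 0.092, adjusted p = 0.00239), against -0.27 with spike-in scaling (adjusted p = 0.0423), a call in the opposite direction. The difference between both Rims1 probes on the same array did not pass a test between the groups (0.15, exact permutation test, two-sided, p = 0.139 both unadjusted and adjusted over 5 probe pairs).

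Rims2 encodes RIM2, a close relative of RIM1 with partly shared functions. Its only probe had 1.04 to 1.40 times the 75th percentile in HFD samples (median 1.26), against 0.671, 0.667, 0.727, 0.730 and 0.628 in CO samples. The groups lay far apart, with the lowest HFD sample, replicate 6, above all CO samples, and the spread within HFD was wider than within CO. The levels averaged 0.30 ± 0.15 in HFD and -0.55 ± 0.092 in CO samples on the log2 scale (SD, n = 6 and n = 5), so Rims2 was 1.80-fold higher (log2 difference 0.85, SE 0.081, adjusted p = 4.69e-06). With spike-in scaling the difference was 0.18 and no longer passed (adjusted p = 0.148).

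Pclo, which encodes the giant scaffold protein Piccolo, had the largest differences of the 10 genes. Its brightest probe (A_55_P2014755, designed on NM_001110796) had 3.46 to 4.27 times the 75th percentile in HFD samples (median 4.14), against 2.42, 1.48, 2.26, 1.77 and 2.32 in CO samples. The HFD samples lay close together and above all CO samples, among which replicates 2 and 4 were lowest. The probe was 1.99-fold higher (log2 difference 0.99, SE 0.13, adjusted p = 3.64e-05), and it kept this direction with spike-in scaling (0.32, adjusted p = 0.0461).

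The other 3 Pclo probes did not follow a single course. A probe on NM_011995 (A_55_P2014750) had 2.13 to 2.56 in HFD samples (median 2.36), against 0.617, 0.522, 0.927, 0.986 and 0.480 in CO samples. A second probe on that transcript (A_52_P336904) had 0.376 to 0.469 in HFD samples (median 0.418), against 0.0829, 0.0578, 0.103, 0.115 and 0.0626 in CO samples. In both, all HFD samples lay well above all CO samples, and CO replicates 3 and 4 were the highest of their group. They were 3.48-fold (log2 difference 1.80, SE 0.18, adjusted p = 6.49e-06) and 5.22-fold higher (2.39, SE 0.17, adjusted p = 6.48e-07), and both kept the direction with spike-in scaling (1.13 and 1.71). With normexp background correction the log2 differences were 1.81 for A_55_P2014750 and 1.65 for the dimmer A_52_P336904, so the size of the latter depends on the background handling. The fourth probe (A_55_P2058143, again on NM_001110796) had 0.0868 to 0.0987 in HFD samples (median 0.0894), against 0.0760, 0.116, 0.0694, 0.109 and 0.112 in CO samples. Its CO samples fell on both sides of the HFD samples, with replicates 1 and 3 below and replicates 2, 4 and 5 above all of them, and the difference was -0.055 (95% interval -0.35 to 0.24, adjusted p = 0.734). With spike-in scaling this probe was lower (-0.73, adjusted p = 9.66e-04).

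Differences between Pclo probes on the same array are free of the scaling of that array. The brightest probe minus A_55_P2014750 differed between HFD and CO samples by -0.81 (exact permutation test, two-sided, p = 0.00866), minus A_52_P336904 by -1.39 (p = 0.00433) and minus A_55_P2058143 by 1.05 (p = 0.00433), each with an adjusted p of 0.0108 over 5 probe pairs (exact test). The 4 probes thus changed unequally, the 2 probes on NM_001110796 included. Their differences spanned 2.44 log2 units, beside a median of 0.72 over 84 genes with 4 tested probes, of which 92.9% had a smaller span. Probe sequences were not used here, so which exons the probes bind is not given.

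**Figure D2:**
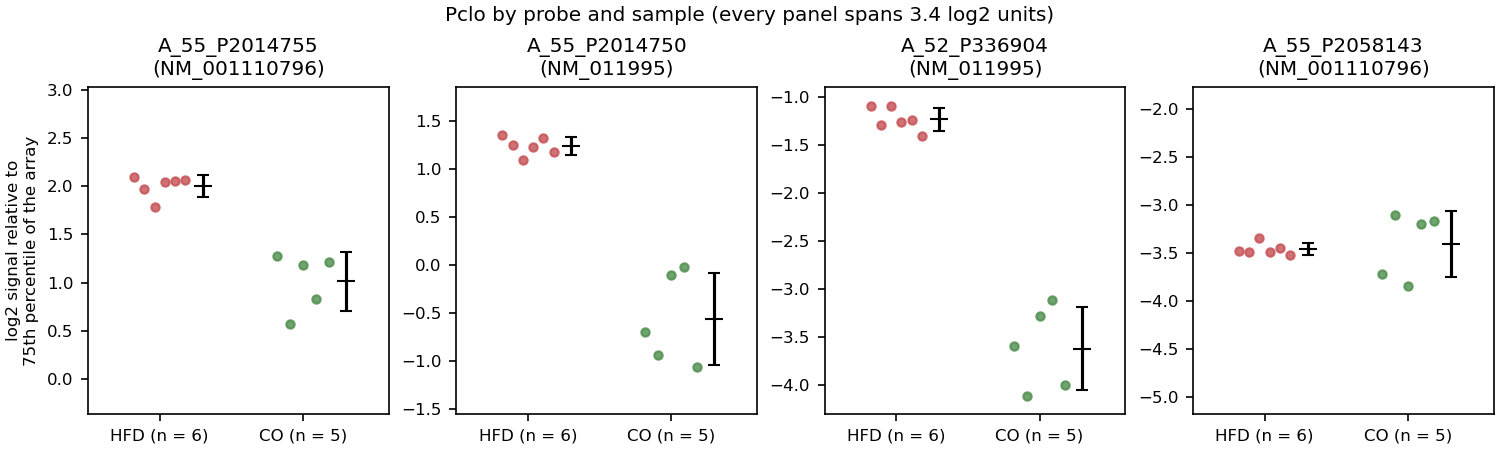
Log2 signal of the 4 Pclo probes relative to the 75th percentile of the array, in 6 HFD and 5 CO samples; points are samples, and bars give the mean and SD. In the first 3 panels every HFD sample lies above every CO sample, also in direction with spike-in scaling, and in the fourth the CO samples lie on both sides of the HFD samples (with spike-in scaling this probe is lower in HFD).

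Bsn encodes Bassoon, the partner and structural relative of Piccolo. Its probe had 3.35 to 4.01 times the 75th percentile in HFD samples (median 3.81), against 3.89, 3.84, 3.63, 3.87 and 4.57 in CO samples. The groups overlapped, with CO replicate 5 above all other samples. The difference was -0.071 (SE 0.072, 95% interval -0.23 to 0.088, adjusted p = 0.401), and with spike-in scaling Bsn was lower (-0.74, adjusted p = 7.94e-06).

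The 3 SNARE genes went in different directions: Snap25 was higher, Stx1a was lower and Vamp2 did not pass. Snap25 encodes SNAP-25, which gives 2 of the helices of the fusion complex. Its probe had 45.9 to 50.5 times the 75th percentile in HFD samples (median 49.0), against 32.3, 29.4, 35.2, 33.9 and 31.4 in CO samples. All HFD samples lay above all CO samples and close together. Snap25 was 1.50-fold higher (log2 difference 0.59, SE 0.060, adjusted p = 6.99e-06), against a difference of -0.082 with spike-in scaling (adjusted p = 0.424).

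Stx1a encodes syntaxin-1A, the SNARE protein anchored in the cell membrane. Its probe had 0.728 to 0.827 in HFD samples (median 0.782), against 1.07, 1.10, 0.977, 1.12 and 1.50 in CO samples. No HFD sample reached the lowest CO sample, replicate 3, and CO replicate 5 was the highest. Stx1a was 1.48-fold lower (log2 difference -0.56, SE 0.10, adjusted p = 4.14e-04). This direction held with spike-in scaling (-1.23).

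Vamp2 encodes synaptobrevin-2, the SNARE protein of the vesicle. Its probe had 13.8 to 16.4 in HFD samples (median 14.7), against 16.2, 14.7, 14.9, 13.6 and 15.4 in CO samples, and the ranges of the groups nearly coincided. The difference was -0.014 (SE 0.065, 95% interval -0.16 to 0.13, adjusted p = 0.861), and with spike-in scaling Vamp2 was lower (-0.68, adjusted p = 8.37e-06).

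Syt1 encodes synaptotagmin-1, which binds calcium and the SNARE complex and sets off fast release. Its probe had 25.1 to 33.4 times the 75th percentile in HFD samples (median 27.7), against 21.6, 16.3, 23.5, 19.0 and 16.4 in CO samples. The groups did not overlap, but the lowest HFD sample, replicate 3, came close to CO replicate 3, the highest of its group. Syt1 was 1.48-fold higher (log2 difference 0.57, SE 0.11, adjusted p = 7.78e-04), against -0.11 with spike-in scaling (adjusted p = 0.413).

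The synapsins were lower or did not pass. Syn1, encoding synapsin I, which ties reserve vesicles to one another and to the cytoskeleton, had 18.5 to 19.7 in HFD samples (median 19.0), against 24.3, 24.7, 24.7, 24.0 and 27.0 in CO samples. All HFD samples lay below all CO samples, and CO replicate 5 stood above the rest of its group. Syn1 was 1.31-fold lower (log2 difference -0.39, SE 0.052, adjusted p = 5.49e-05), also in direction with spike-in scaling (-1.06).

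Syn2 encodes synapsin II and had 2 probes on different accessions. The brighter one (A_52_P62444, on NM_013681) had 21.5 to 26.5 in HFD samples (median 24.4), against 24.6, 23.0, 24.1, 23.3 and 24.1 in CO samples. The narrow CO range lay inside the HFD range. The difference was 0.019 (SE 0.063, 95% interval -0.12 to 0.16, adjusted p = 0.803), and with spike-in scaling the gene was lower (-0.65, adjusted p = 1.32e-05). The other probe (A_51_P346491, on NM_001111015) had 1.12 to 1.39 in HFD samples (median 1.22), against 1.48, 1.47, 1.40, 1.70 and 1.59 in CO samples. Its highest HFD sample, replicate 2, lay just under the lowest CO sample, and the probe was 1.22-fold lower (log2 difference -0.29, SE 0.075, adjusted p = 0.00555), also in direction with spike-in scaling (-0.96). The difference between both Syn2 probes on the same array was 0.30 larger in HFD samples (exact permutation test, two-sided, p = 0.00866, adjusted p = 0.0108 over 5 probe pairs). Averaged over both probes, Syn2 was lower (-0.13, adjusted p = 0.0287).

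**Figure D3:**
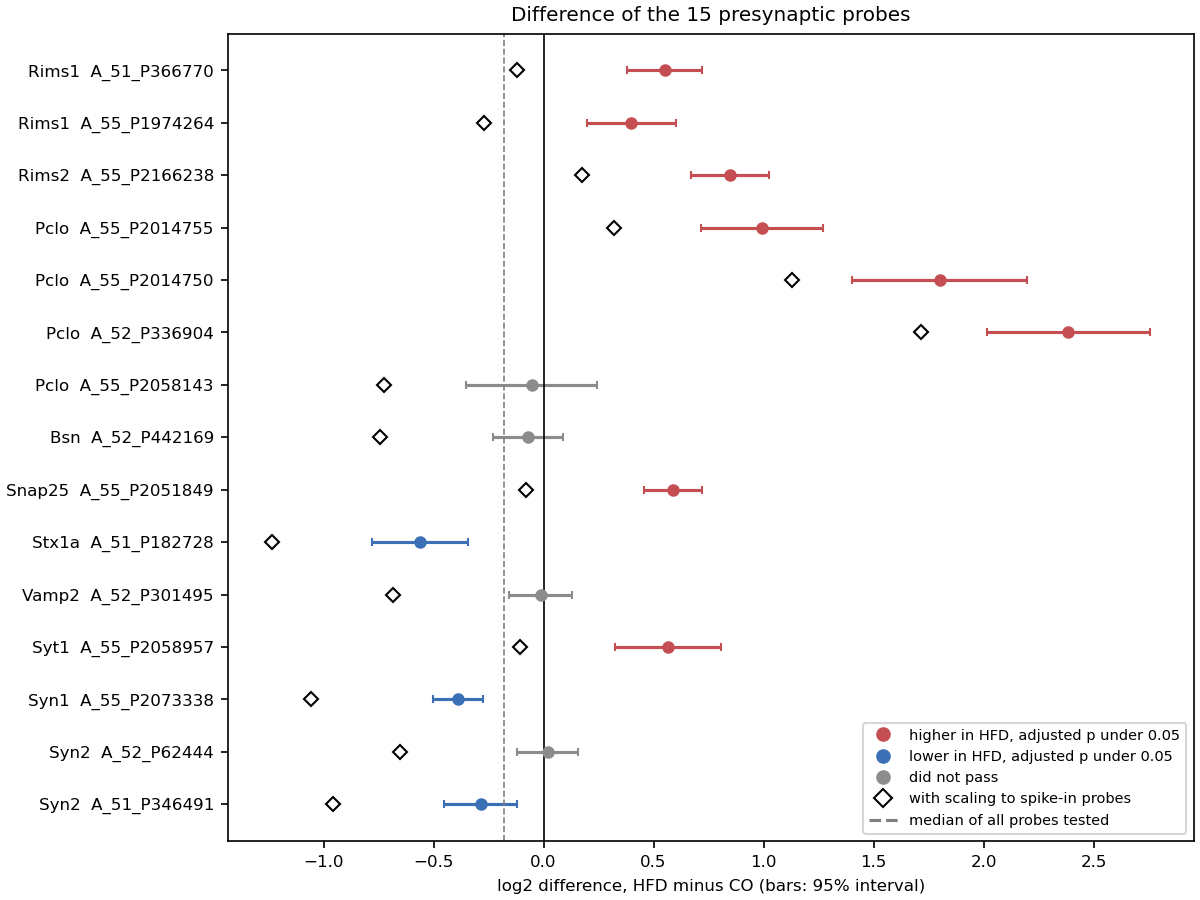
Log2 difference, HFD minus CO, of the 15 probes with 95% intervals (limma), coloured by the call; open diamonds give the same difference with scaling to the spike-in probes, and the dashed line marks the median of all probes tested (-0.18). The 3 called Pclo probes lie farthest to the right on both scales, while the diamonds of both Rims1 probes, Snap25, Syt1 and the brighter Syn2 probe lie below 0, on the other side of it from the points.

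Since the scaling of an array cancels in the difference of 2 genes on it, 6 pairs of partners were compared in this way, with p-values adjusted over the 6 pairs. A difference between the groups here says that both genes changed unequally, and not which of them changed. Pclo minus Bsn, the large scaffolds, ran from -0.17 to 0.22 in HFD samples and from -1.37 to -0.68 in CO samples, so it was 1.06 higher in HFD offspring. Rims2 minus Rims1 was 0.30 higher, at 1.42 ± 0.12 in HFD and 1.13 ± 0.17 in CO samples (SD, n = 6 and n = 5), and was the only pair whose groups overlapped (exact permutation test, two-sided, p = 0.0130, adjusted p = 0.0130). Among the SNARE genes, Snap25 minus Stx1a ran from 5.85 to 6.09 in HFD and from 4.38 to 5.17 in CO samples, a difference of 1.15, and Snap25 minus Vamp2 from 1.49 to 1.85 in HFD and from 0.99 to 1.32 in CO samples, a difference of 0.60. Syt1 minus Stx1a was 1.13 higher in HFD samples and Syn2 minus Syn1 was 0.41 higher by the brightest probes, and 0.25 higher with Syn2 as the mean over its probes. In the 5 pairs other than Rims2 minus Rims1, all HFD samples lay above all CO samples (exact permutation test, two-sided, p = 0.00433 each, adjusted p = 0.00519). Among single probes, 48.2% did not overlap between the groups. The share among all pairs of genes was not determined, so these separations are not set apart from other pairs. The pairs were chosen with earlier results of these arrays known, and a session of its own for each group remains: diet and scan session cannot be told apart here either.

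**Figure D4:**
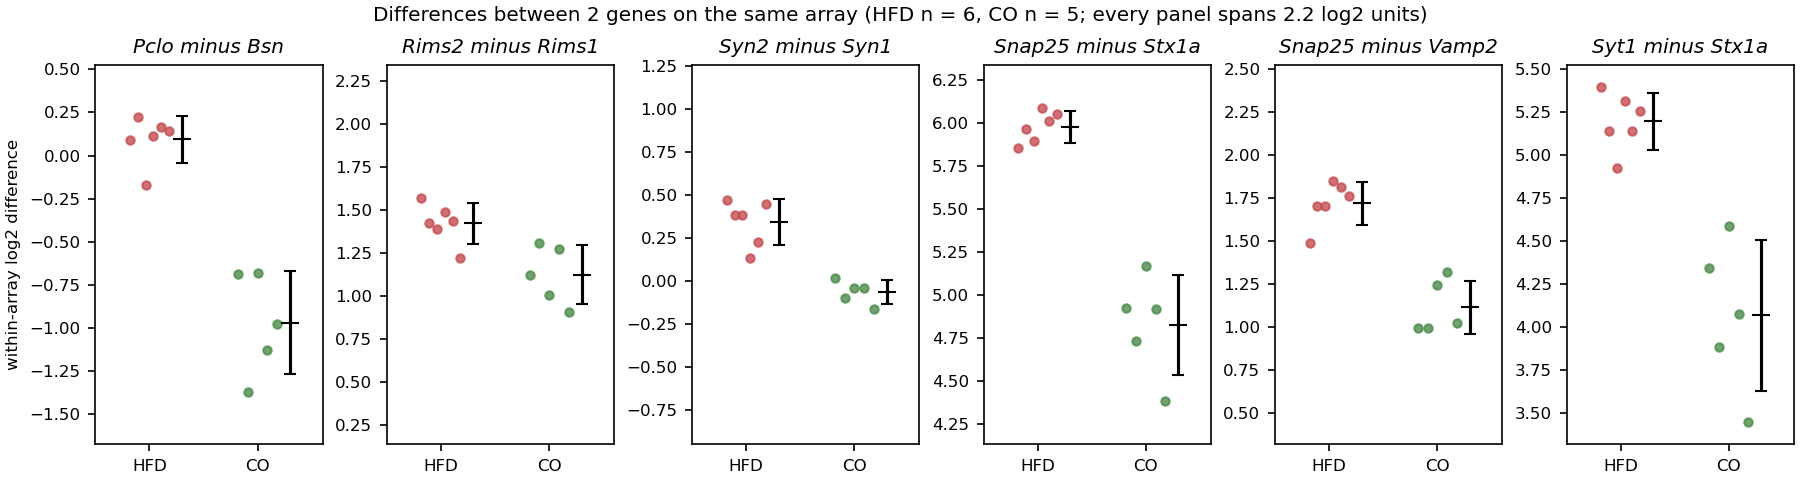
Difference of the log2 signals of 2 genes on the same array, for 6 pairs, in 6 HFD and 5 CO samples; points are samples, and bars give the mean and SD. The HFD samples lie above all CO samples in every pair but Rims2 minus Rims1, beside no overlap for 48.2% of all single probes. The height of a panel depends on the probes and is not a ratio of transcripts.

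The wider presynaptic gene set was read from 5 further lists of 100 genes, of which 99 were tested: 29 were higher, 46 were lower and 24 did not pass in HFD offspring, beside 21.9% higher and 44.5% lower among all genes. Of 21 active zone partners, 8 were higher and 10 lower (median difference -0.16). With normexp background correction 8 were higher and 5 lower, beside 2629 and 4054 of all 17189 genes. Rab3c, a vesicle GTPase to which RIM binds, was 2.71-fold higher (log2 difference 1.44, adjusted p = 6.71e-07), and so were all 3 of its probes. Ppfia2, encoding the scaffold liprin-alpha-2, was 2.57-fold higher (1.36, adjusted p = 2.43e-06), and both kept the direction with spike-in scaling (0.77 and 0.69). Unc13a, which encodes the priming factor Munc13-1, was 1.62-fold lower (-0.70, adjusted p = 3.97e-05), and Tspoap1, which encodes the RIM-binding protein 1, was 1.49-fold lower (-0.57, adjusted p = 5.10e-06).

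Of 28 other SNARE genes and regulators, 7 were higher and 12 lower (median -0.073). Both tomosyn genes, whose products bind syntaxin and hold back fusion, were higher: Stxbp5l 4.66-fold (log2 difference 2.22, adjusted p = 2.31e-06) and Stxbp5 2.39-fold (1.26, adjusted p = 2.64e-05), also with spike-in scaling (1.55 and 0.59). Snap23, the relative of Snap25 found outside neurons too, was 2.21-fold higher by its brightest probe (1.14, adjusted p = 5.47e-07, 0.47 with spike-in scaling), while its other probe had a difference of -0.19 and did not pass (adjusted p = 0.134). Syt17, a synaptotagmin relative, was 1.64-fold lower (-0.71, adjusted p = 8.94e-06).

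Of 18 other vesicle protein genes, 5 were higher and 10 lower (median -0.31). Syngr3 and Syngr1, which encode synaptogyrins, were 1.79-fold and 1.54-fold lower (log2 differences -0.84 and -0.62), and Scamp5, a vesicle membrane protein gene, was 1.50-fold lower (-0.58). Dnajc5, encoding a vesicle chaperone that acts on SNAP-25, was 1.56-fold higher by its brightest probe (0.64, adjusted p = 3.43e-05, but -0.028 with spike-in scaling), and lower by both other probes (-0.50 and -0.70). Of 4564 genes with 2 or more tested probes, 8.09% had probes called in both directions, as Dnajc5 did.

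Of 18 vesicle recycling genes, 3 were higher and 10 lower (median -0.23). Ap2b1, encoding the beta subunit of the clathrin adaptor AP-2, was 9.55-fold lower by its only tested probe (log2 difference -3.26, SE 0.30, adjusted p = 3.83e-06). Its HFD samples varied far more than its CO samples, at -0.96 ± 0.73 in HFD and 2.29 ± 0.092 in CO samples (SD, n = 6 and n = 5). The other AP-2 gene named by the rule, Ap2m1, was 1.26-fold lower (-0.33, adjusted p = 9.41e-04), and all 3 of its probes were lower. Cltc, the clathrin heavy chain gene, was 2.01-fold higher (1.00, adjusted p = 1.02e-05, 0.33 with spike-in scaling), and Cltb, which encodes a light chain, was 1.29-fold lower (-0.37).

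Of 14 genes of dense core vesicles, which store peptides, 6 were higher and 4 lower (median 0.15). With normexp background correction 2 were higher and 4 lower, beside 2629 and 4054 of all 17189 genes. With spike-in scaling 0 were higher and 12 lower, beside 5.5% and 83.7% of all genes. The related receptor-like genes Ptprn and Ptprn2 went opposite ways, with Ptprn 1.49-fold lower (log2 difference -0.58) and Ptprn2 1.53-fold higher (0.61, but -0.059 with spike-in scaling), though 1 of 3 Ptprn2 probes did not pass (-0.051, adjusted p = 0.746). Cadps2, a priming factor of these vesicles, was 1.42-fold higher (0.51, but -0.16 with spike-in scaling), and Vgf, which encodes a stored peptide precursor, was 1.24-fold lower (-0.32).

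**Figure D5:**
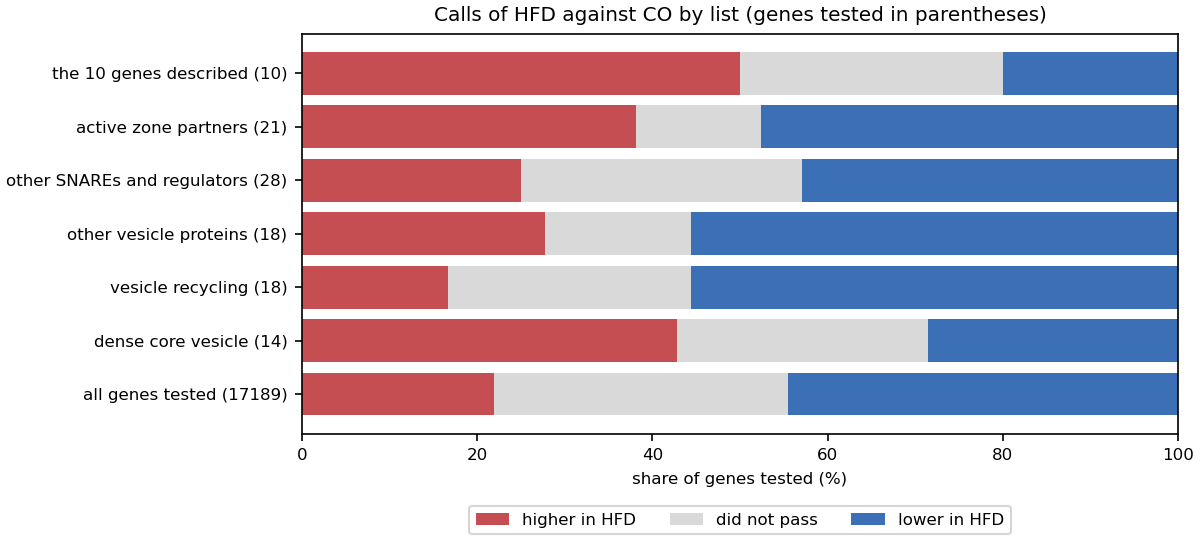
Share of genes higher, not passing and lower in HFD against CO offspring (limma, adjusted p threshold 0.05, brightest probe) among the 10 genes described, the 5 further presynaptic lists and all genes tested, with the number tested in parentheses. The 10 genes hold 50% higher and 20% lower calls, beside 21.9% and 44.5% of all genes; with spike-in scaling 1 of the 10 is higher and 5 are lower, beside 5.5% and 83.7% of all genes.

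Within the groups, the spread of HFD samples was narrower than that of CO samples for 12 of the 15 probes (80%), and for 61.4% of all probes. The median SD of the 15 probes was 0.095 in HFD and 0.16 in CO samples on the log2 scale, beside 0.15 in HFD and 0.18 in CO samples over all probes. CO replicate 2 had the lowest mean of the 10 genes relative to its group mean (-0.12), with Pclo at -0.44 and Syt1 at -0.23, and HFD replicate 1 the highest (0.089), with Syt1 at 0.24. CO replicate 5 combined the highest Stx1a (0.40 above its group mean) and Bsn (0.21) with a low Syt1 (-0.22). Over the 11 arrays, these mean deviations of the 10 genes were most alike to those of Cntnap5a (Pearson r = 0.93), Med14 (0.93), Akr1b10 (0.92), Nrep (0.91) and Chtop (0.90) among 17143 genes. These r values are the largest of many, rest on 11 arrays that share their scan sessions within each group, and are given as a description.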

How the data were processed

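Cyanine-3 labelled hypothalamic RNA of 6 HFD and 5 CO samples was hybridized to 1 array each. The authors deposited the scanner output with spot intensity values on a linear scale, background-subtracted by Agilent Feature Extraction (10.8 in the submitters' processing notes, 10.7.3.1 in the file headers). Any normalization between arrays was not given in the sources used here. Groups follow the sample titles.

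From the deposited intensity, log2 of the processed signal minus that of the 75th percentile of each array was taken. Controls and outlier spots were dropped, and replicate spots were averaged. Of 39429 mouse probes, 26369 were named by RefSeq accession through a gene table of GRCm38.p6, used for names only. A probe was tested where at least 5 of 11 arrays had it well above background. Tests used lmFit and eBayes of limma 3.58.1 (R 4.3.3, statmod 1.5.0 and the data.table package at 1.17.8), were two-sided and were adjusted by Benjamini-Hochberg over all probes tested. Values of the 15 probes, with spike-in scaling too, and of the other probes of list genes come from that fit. Counts of genes, the 5 further lists, the mean over probes and the other alternatives for a gene come from a second fit with 1 value per gene, the brightest probe over all arrays unless stated. Scripts were tested on simulated data. No 2 arrays held identical values, and the number of arrays limits the precision. No per-sample column outside the sample mapping was used (0 such columns).

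Named were all 10 genes, up to 4 genes of each further list by smallest adjusted p, and those 5 genes with the most similar deviations. Genes, lists and pairs were chosen with earlier results of these data known. Sim1 is named for being below background. Alternatives were quantile, median and spike-in scaling, normexp background correction, other filters on dim probes, the mean over probes, slide, replicate number or leading number of the CO titles as a block, array weights, leaving out each array, an exact Mann-Whitney test and a minimum fold of 2. Normexp was planned on mean spot signals and run on median spot signals (offset 50), chosen after the columns had been seen. The Rank Product test of the study's methods resamples over genes and was not run.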

Additional observations from a re-analysis of the deposited data

Results flagged for a closer look

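In 2 of 42 sets of samples examined (a probe or a pair of genes in 1 group), 1 sample stood apart from the others of its group by its gap relative to the range, and chance alone does so in about 1 of 20 sets. Syn1 was 4.75 on the log2 scale in CO replicate 5, and the nearest CO sample was at 4.63. Pclo minus Bsn was -0.17 in HFD replicate 3, and the nearest HFD sample was at 0.091.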

How the results depend on the processing

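Calls on the 10 genes changed with the scaling. With the 75th percentile, 29 genes of the further lists were higher and 46 lower, 3762 of all genes higher and 7657 lower, and 7391 of all probes higher and 13973 lower. With spike-in scaling, which shifts the median of all genes by -0.67, 1 of the 10 genes was higher and 5 were lower, 3 of the 15 probes higher and 8 lower, 6 genes of the further lists higher and 79 lower, 946 of all genes higher and 14384 lower, and 2248 of all probes higher and 25636 lower. By list, 2 active zone partners were then higher and 15 lower, 3 other SNARE genes and regulators higher and 23 lower, 0 other vesicle protein genes higher and 13 lower, 1 vesicle recycling gene higher and 16 lower, and 0 dense core vesicle genes higher and 12 lower. The difference then became -0.12 for Rims1, -0.27 for its second probe, -0.082 for Snap25, -0.11 for Syt1 and -0.65 for Syn2. With normexp, 4054 of all genes were lower, 4521 of all probes higher and 5707 lower, Syn2 had -0.12, and the second probes of Rims1 (0.26, adjusted p = 0.179) and Syn2 (-0.20, adjusted p = 0.137) no longer passed, and the cause was not tested. Among genes at least 2-fold apart, 0 of the 10 were higher and 0 lower (against 5 and 2 with no minimum fold), with 2 of the 15 probes higher and 0 lower, 6 list genes higher and 3 lower, 952 of all genes higher and 1736 lower, and 2321 of all probes higher and 4090 lower. Differences near 0 that passed no test changed sign: Vamp2 to 0.0052 with quantile normalization and 0.043 with median scaling, the fourth Pclo probe to 0.0099, 0.0018 and, with array weights, 0.0078, and Syn2 to -0.036 with array weights and -0.13 as the mean over its probes (adjusted p = 0.0287, a call). Leaving out 1 sample left 5 of the 10 genes higher and 2 lower and 8 of the 15 probes higher and 3 lower each time, while Vamp2 ranged from -0.048 to 0.016, Syn2 from -0.0083 to 0.052 and the fourth Pclo probe from -0.17 to 0.021. With normexp, 5 active zone partners were lower (10 without it) and 2 dense core vesicle genes higher (6 without it). Of all genes, 4054 were then lower (7657 without it) and 2629 higher (3762 without it). All 6 pair differences passed under each alternative run on them, and Syn2 minus Syn1 was 0.25 with the mean over probes. The replicate numbers do not pair the samples (correlations of same-numbered samples -0.10 to 0.18, and 2 of 5 CO arrays correlated best with their own number). With the replicate block, in which HFD replicate 6 has no partner, 5 of the 10 genes were higher and 2 lower, as without it. The slide block had a correlation of -0.060 and the leading-number block 0.035.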
